A study of Mus musculus with 12 samples.

Results

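The 9 genes described here encode the parts of the major histocompatibility complex (MHC) that show peptides at the cell surface. They were taken by symbol from a table of 17202 genes measured in the cerebral cortex of mice. Of the 9, 5 belong to the class I pathway (H2-K1, H2-D1, B2m, Tap1 and Tap2) and 4 to the class II pathway (Cd74, H2-Aa, H2-Ab1 and H2-Eb1), and all 9 passed the filter on low values that left 17111 genes for testing.

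RNA was sequenced from 12 mice, 3 in each of 4 groups. CD mice carry a heterozygous deletion from Gtf2i to Fkbp6 that models Williams-Beuren syndrome, and wild-type (WT) mice do not. VERCUR mice drank curcumin, a phenol of turmeric, together with verapamil, a calcium channel blocker, and VEH mice drank the vehicle, water with DMSO. Crossed, these give VEH-WT and VERCUR-WT mice and VEH-CD and VERCUR-CD mice. The labels give strain C57Bl6 and an age of 16 weeks for every mouse. They give curcumin at 60 and verapamil at 10 mg/kg/day, taken for 1 month from an age of 8 weeks. The study's methods give another verapamil dose, another duration and another age, and the labels call the VEH mice untreated. The CD line was crossed with Thy1-YFP mice, whose transgene labels pyramidal neurons, and the deletion is present in every tissue. The study asks how the co-treatment acts in CD mice, and in particular on inflammation, of which the MHC genes are a common readout.

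Class I molecules consist of a heavy chain, such as the products of H2-K1 and H2-D1, bound to the light chain beta-2 microglobulin from B2m. The TAP transporter, a dimer of the Tap1 and Tap2 products, carries cytosolic peptides into the endoplasmic reticulum for loading. Class II molecules pair an alpha chain with a beta chain, which are H2-Aa with H2-Ab1 in the A molecule, and the invariant chain from Cd74 guards their groove until they reach the endosome. C57BL/6 mice carry the H-2b haplotype, which makes no alpha chain for the E molecule, although H2-Eb1 still codes for its beta chain. In the healthy brain class I genes are expressed by endothelial cells, microglia and some neurons, while class II genes are largely a property of macrophages at the brain's borders and of rare microglia.

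Of the 9 genes, 7 lie in the MHC on chromosome 17 of GRCm38, in the GENCODE M21 annotation. H2-K1 is at chr17:33996017-34000347 on the minus strand and H2-D1 at chr17:35262730-35267499 on the plus strand. Between them lie Tap1 (chr17:34187553-34197225), Tap2 (chr17:34203527-34216321), H2-Ab1 (chr17:34257689-34269419) and H2-Eb1 (chr17:34305867-34316674) on the plus strand and H2-Aa (chr17:34282744-34287823) on the minus strand. B2m is on the plus strand at chr2:122147686-122153083, and Cd74 lies elsewhere in the genome. No member lies in the deleted interval, which is on chromosome 5.

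The sequences before the start sites of both classes are shown because they hold the motifs by which MHC genes are usually regulated. Promoter windows from RefSeq on GRCm38.p6 were found for 6 of the 9 genes, and the 250 bases before the start site were searched on both strands. The motifs were the Y box CCAAT, the X1 box core AGNNACNG, the core of the interferon-stimulated response element GAAANNGAA, the core of the class I enhancer A GGGATTCCC, and TGACG, the core of the X2 box, which was added after the sequences had been read. Capitals mark the matches. The windows below are H2-K1 (chr17:34000348-34000597, minus strand, at the first of its listed starts), B2m (chr2:122147437-122147686, plus strand), H2-Aa (chr17:34287824-34288073, minus strand) and H2-Eb1 (chr17:34305617-34305866, plus strand), each written 5′ to 3′ on the strand of its gene.
H2-K1: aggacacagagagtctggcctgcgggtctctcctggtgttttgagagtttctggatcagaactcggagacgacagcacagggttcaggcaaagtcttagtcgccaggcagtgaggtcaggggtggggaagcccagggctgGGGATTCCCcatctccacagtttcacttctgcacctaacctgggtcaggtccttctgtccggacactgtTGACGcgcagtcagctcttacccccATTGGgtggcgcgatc
B2m: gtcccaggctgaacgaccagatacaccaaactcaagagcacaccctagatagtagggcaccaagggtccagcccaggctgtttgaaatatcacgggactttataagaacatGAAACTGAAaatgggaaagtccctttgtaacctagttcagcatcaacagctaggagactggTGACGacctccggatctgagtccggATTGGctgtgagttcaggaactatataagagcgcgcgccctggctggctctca
H2-Aa: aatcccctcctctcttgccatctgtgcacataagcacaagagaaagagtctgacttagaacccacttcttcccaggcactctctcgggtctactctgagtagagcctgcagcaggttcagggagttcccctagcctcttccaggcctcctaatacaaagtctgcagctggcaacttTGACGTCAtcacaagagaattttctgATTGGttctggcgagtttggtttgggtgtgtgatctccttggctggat
H2-Eb1: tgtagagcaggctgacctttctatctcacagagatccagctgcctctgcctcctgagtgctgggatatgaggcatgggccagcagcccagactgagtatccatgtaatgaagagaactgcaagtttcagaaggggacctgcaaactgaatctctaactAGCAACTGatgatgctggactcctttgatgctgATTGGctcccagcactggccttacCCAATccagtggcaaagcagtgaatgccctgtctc

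The enhancer A core was present in both heavy chain genes, H2-K1 and H2-D1, and in 0.301% of all 32851 windows. The Y box, which was present in 33.8% of all windows, was found in each of the 6 genes, Tap1 included. TGACG was found in H2-K1, H2-D1, B2m, Tap1 and H2-Aa and in 17.8% of all windows, and in H2-Aa it formed a palindrome with its own complement. Only B2m held an exact match to the interferon pattern GAAANNGAA, against 7.13% of all windows, and other spellings of this element were not searched. The X1 core was in Tap1 and H2-Eb1, against 43.6%. No match says only that these letters are not in the window.

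The enhancer A of H2-K1 and H2-D1 is set out below over 30 bases, at chr17:34000438-34000467 on the minus strand and chr17:35262914-35262943 on the plus strand. These stretches differ at 1 base. Over the bases of the windows that could be aligned, H2-K1 and H2-D1 were identical at 87.9% of 190 positions, and H2-Aa and H2-Eb1 at 69.7% of 195 positions with gaps left out.
H2-K1 enhancer A: cccagggctgGGGATTCCCcatctccacag
H2-D1 enhancer A: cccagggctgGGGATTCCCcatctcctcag

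The depth was 40290000 to 56480000 counted reads per mouse, and values are normalized counts, that is, reads per gene divided by a factor for each library. The 19 genes of the deleted region, which check the labels, had summed levels of 78472 to 84228 in WT mice of both treatments and 37231 to 41601 in CD mice. Markers of cortical neurons summed to 376902 to 428868 in every mouse. Markers of striatal neurons varied from 10244 to 44068 and those of oligodendrocytes from 75434 to 216145 between mice, within groups as well as between them. No extraction or sequencing batch is given in the sources used here. In bulk tissue, fewer cells of a type and less RNA per cell cannot be told apart.

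**Figure D1:**
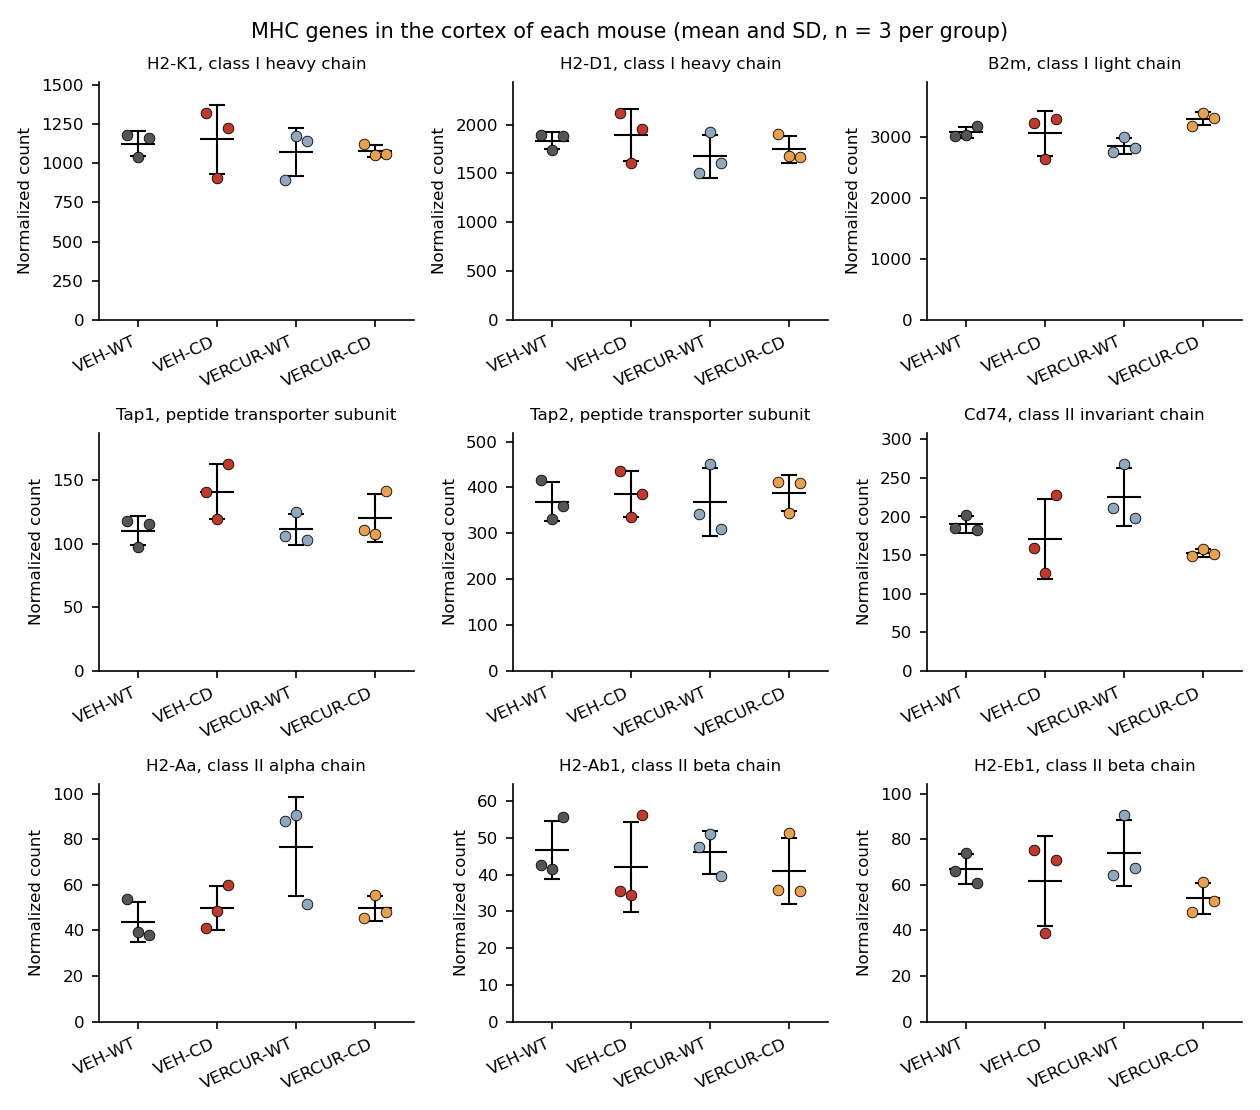
Normalized counts of the 9 MHC genes in each of 12 mice, 1 panel per gene with a linear axis from 0; points are mice, the horizontal bar is the mean and the whiskers are the SD of 3 mice. Cd74 in VERCUR-CD mice sits between 148 and 158, below every WT mouse, and B2m in VERCUR-CD mice sits between 3192 and 3406, above every WT mouse. The share of all genes with such a pattern was not counted.

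The class I chains were expressed far above the class II chains in this cortex. Per kilobase of exons, the mean normalized count over 12 mice was 3577 ± 279.9 (SD) for B2m, 694 ± 71.2 for H2-D1 and 377 ± 42.4 for H2-K1. On this scale the ranges of these 3 genes over the mice did not overlap each other or those of the other 6. Cd74, at 110.0 ± 23.6, was the highest class II gene and overlapped Tap2, at 99.9 ± 12.4. H2-Eb1 (33.0 ± 7.0), Tap1 (22.01 ± 3.5), H2-Ab1 (17.1 ± 3.2) and H2-Aa (14.5 ± 4.6) followed, and each overlapped the next. This order depends on the length used. Per kilobase of the longest coding transcript, H2-Aa was at 48.8 ± 15.3, above Tap1 (40.8 ± 6.5), H2-Eb1 (38.4 ± 8.1) and H2-Ab1 (36.2 ± 6.7), again each overlapping the next, and H2-D1 (851 ± 87.4) overlapped H2-K1 (684 ± 76.9). The low genes rest on few reads: H2-Aa was counted with 34 to 98 reads per mouse and H2-Ab1 with 31 to 64, against 2319 to 3787 for B2m. The lengths are those of GENCODE M21, whereas the annotation used for counting is not given in the sources used here.

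Some reads could belong to more than 1 of these genes. Of the stretches of 100 bases in the longest coding transcript, 4.64% in H2-D1 also occur in 9 other genes, with the largest shares, 4.24% each, in H2-Q1, H2-T23, Gm7030 and Gm11127, 3.96% in Tap1 occur in Psmb9, and 5.35% in Tap2 occur in Gm15821 or Gm20496. The other 6 members share no such stretch with another gene, H2-K1 included. B2m overlaps Patl2, Tap1 overlaps Psmb9, Tap2 overlaps Gm20496 and Gm15821, and H2-Eb1 overlaps Gm20513, each on the opposite strand, and Cd74, at chr18:60803848-60812652 on the plus strand, contains Mir5107. Whether the counting used strand is not given, so reads of these overlaps cannot be assigned with certainty.

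The first comparison asks whether the deletion alone was accompanied by a different level of MHC genes. It was tested with limma on log2(normalized count + 1), and a gene was called at a Benjamini-Hochberg adjusted p under 0.05 with a change of more than 25% in either direction. None of the 9 genes was called between VEH-CD and VEH-WT mice, where 0.257% of all genes tested were called. At an unadjusted p under 0.05 there was 1 of 9, Tap1, against 11.8% of all genes. Their median log2 fold change was 0.02, beside 0.00 over all genes. The values of the groups did not overlap for 1 of the 9, again Tap1, against 20.6% of all genes.

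Tap1, the transporter subunit, was at 118, 97.0 and 116 normalized counts in the VEH-WT mice and at 141, 119 and 163 in the VEH-CD mice. Every VEH-CD mouse was above every VEH-WT mouse, although the lowest VEH-CD mouse was nearly level with the highest VEH-WT mouse. The log2 fold change was 0.35 ± 0.16 (SE), an unadjusted p of 0.047 and a limma adjusted p of 0.416. In VERCUR-WT mice Tap1 was at 106, 125 and 103 and in VERCUR-CD mice at 111, 108 and 141, and these groups overlapped. Its partner Tap2 was at 416, 331 and 359.8 in VEH-WT and at 436, 335 and 386 in VEH-CD mice, which overlapped, with a log2 fold change of 0.06 ± 0.15 (SE).

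The heavy chains varied more within the VEH-CD group than between the genotypes. H2-K1 was at 1178, 1038 and 1164 normalized counts in VEH-WT mice and at 1324, 908 and 1225 in VEH-CD mice. H2-D1 was at 1892, 1740.0 and 1879 in VEH-WT mice and at 2124, 1604 and 1955 in VEH-CD mice. In both genes the VEH-CD mice held the highest and the lowest value of the 6. The log2 fold changes were 0.02 with a 95% interval of -0.27 to 0.31 for H2-K1 and 0.04 with an interval of -0.21 to 0.28 for H2-D1. B2m, the light chain, was at 3026, 3039 and 3189 in VEH-WT and at 3241, 2645 and 3303 in VEH-CD mice, with a log2 fold change of -0.02 and an interval of -0.19 to 0.15.

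The class II genes also overlapped between the VEH groups. Cd74, the invariant chain, was at 185, 202 and 183 normalized counts in VEH-WT mice and at 159, 126 and 228 in VEH-CD mice, with a log2 fold change of -0.19 ± 0.18 (SE). H2-Aa, the alpha chain, was at 53.8, 39.3 and 38.2 in VEH-WT and at 41.1, 48.6 and 59.9 in VEH-CD mice, a log2 fold change of 0.19 ± 0.24. H2-Eb1, a beta chain, was at 66.1, 73.9 and 60.8 in VEH-WT and at 75.4, 38.85 and 70.7 in VEH-CD mice, of which only mouse 2 lay below the VEH-WT range. The other beta chain, H2-Ab1, was at 42.6, 41.6 and 55.6 in VEH-WT and at 35.4, 34.4 and 56.3 in VEH-CD mice. Both beta chains had a log2 fold change of -0.17, with SEs of 0.23 and 0.24. The intervals of the 4 class II genes reached from -0.69 to 0.70, so changes of up to about that size in either direction remain within the error of these 6 mice.

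A single mouse moved several of these values. VEH-CD mouse 2 had the lowest value of its group in 8 of the 9 members, where it was the lowest in 38.5% of all genes tested. Without this mouse the log2 fold change of Tap1 between the VEH groups was 0.46 (limma adjusted p = 0.257), that of H2-K1 0.18 and that of H2-D1 0.15, that of Cd74 went from -0.19 to 0.00 and that of H2-Eb1 from -0.17 to 0.13. There was still no call among the 9 without it. VERCUR-WT mouse 2 had the highest value of its group in all 9 members, against 33.4% of all genes.

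**Figure D2:**
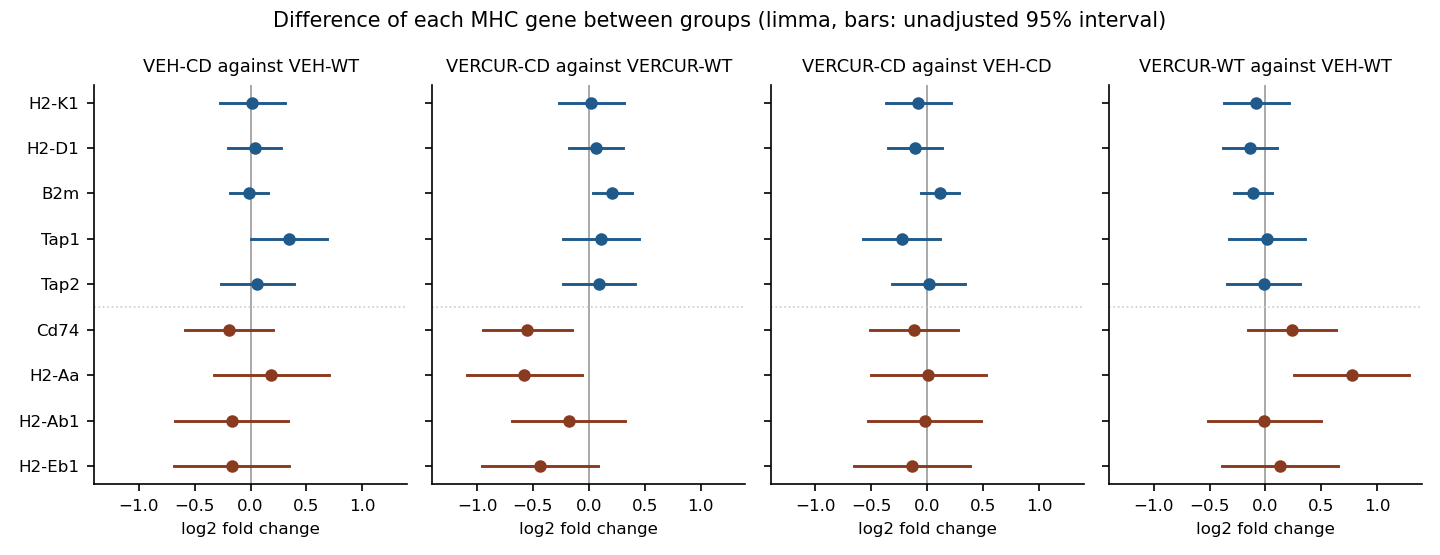
Log2 fold change of each MHC gene (class I pathway above the dotted line, class II pathway below it) in 4 comparisons of 2 groups of 3 mice; points are limma estimates on log2(normalized count + 1) and bars are unadjusted 95% intervals. The class I intervals are narrow and mostly include 0, and the intervals clear of 0 are Tap1 in the first panel, B2m, Cd74 and H2-Aa in the second, and H2-Aa in the fourth.

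Between the co-treated genotypes Cd74 and B2m had the smallest unadjusted p values of the 9, and neither was called. The 4 class II members had negative log2 fold changes in VERCUR-CD against VERCUR-WT mice, with a median of -0.49, in every fit that left out 1 mouse. The 5 class I members had positive ones, with a median of 0.09, but 4 of these signs turned when a single mouse was left out. Without VERCUR-WT mouse 1 the value was -0.10 for H2-K1 and -0.01 for H2-D1, without VERCUR-CD mouse 3 it was -0.02 for Tap1, and without VERCUR-WT mouse 3 it was -0.03 for Tap2. B2m was positive in each of these fits, at 0.18 to 0.25. limma with Benjamini-Hochberg adjustment called 0 of the 9 and 0.146% of all genes. At an unadjusted p under 0.05 there were 3 of 9 (Cd74, H2-Aa and B2m), against 4.1% of all genes. The groups did not overlap for 3 of 9 (Cd74, H2-Eb1 and B2m), against 7.74% of all genes. The median over all genes was 0.00.

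Cd74 was at 211, 269 and 197.5 normalized counts in VERCUR-WT mice and at 148, 158 and 151 in VERCUR-CD mice. The highest VERCUR-CD mouse was below the lowest mouse of either WT group. The share of all genes whose VERCUR-CD mice lay apart from both WT groups was not counted. The fold change was 0.68, a log2 difference of -0.55 ± 0.18 (SE), with an unadjusted p of 0.0103 and a limma adjusted p of 0.998. The 3 VERCUR-CD mice lay close together, with a CV of 3.4%, whereas the CV of the VEH-CD mice was 30.3%.

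H2-Eb1 was at 64.1, 90.8 and 67.3 in VERCUR-WT mice and at 48.0, 61.15 and 52.9 in VERCUR-CD mice. The highest VERCUR-CD mouse was just below the lowest VERCUR-WT mouse. The log2 fold change was -0.44 ± 0.24 (SE), with an unadjusted p of 0.0896. H2-Ab1 overlapped, at 47.5, 50.9 and 39.7 in VERCUR-WT and at 35.8, 51.3 and 35.6 in VERCUR-CD mice, with a log2 fold change of -0.18 ± 0.23.

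H2-Aa was at 87.8, 90.8 and 51.75 in VERCUR-WT mice and at 45.4, 55.8 and 48.1 in VERCUR-CD mice. The groups overlapped through VERCUR-WT mouse 3, which lay far below the other two mice of its group. The log2 fold change was -0.58 ± 0.24 (SE), with an unadjusted p of 0.0304 and a limma adjusted p of 1. In a limma fit in which every group of a gene that had a CV of at least 20% lost its most extreme value, Cd74 and H2-Aa were both called, with adjusted p values of 0.0291 and 0.0214. That setting also raised the calls over all genes to 448 from 25. For Cd74 it took out VEH-CD mouse 3, which is in neither compared group, and the log2 fold change stayed at -0.55. For H2-Aa it took out VERCUR-WT mouse 3, the mouse through which the groups overlapped. Values left out for being extreme narrow the spread by design, so these adjusted p values overstate the evidence. Without VERCUR-WT mouse 2, the highest of its group in every member, the log2 fold changes were -0.42 for Cd74, -0.44 for H2-Aa, -0.28 for H2-Eb1 and 0.25 for B2m, and limma called 0 of the 9.

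Among the class I members, B2m was the one whose values did not overlap between the co-treated genotypes. It was at 2753, 2998 and 2816 normalized counts in VERCUR-WT mice and at 3192, 3406 and 3312 in VERCUR-CD mice. All VERCUR-CD mice were above every WT mouse of either treatment, but the lowest was nearly level with the highest WT mouse, at 3189. VEH-CD mice 1 and 3, at 3241 and 3303, were also above every WT mouse. How many of all genes had VERCUR-CD mice apart from both WT groups was not counted. Between the co-treated genotypes the fold change was 1.16, a log2 difference of 0.21 ± 0.08 (SE), with an unadjusted p of 0.0199 and a limma adjusted p of 1. The log2 difference of VERCUR-CD mice was 0.12 ± 0.08 from VEH-CD mice and 0.10 ± 0.08 from VEH-WT mice. The heavy chains that B2m accompanies had intervals on both sides of 0, from -0.27 to 0.31 for H2-K1 and from -0.18 to 0.30 for H2-D1. H2-K1 was at 894, 1175 and 1140.2 in VERCUR-WT and at 1123, 1053 and 1059.6 in VERCUR-CD mice, and H2-D1 at 1505, 1926 and 1602 and at 1902, 1674 and 1664.

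The next comparison asks what the co-treatment changed in CD mice. Between VERCUR-CD and VEH-CD mice limma called 0 of the 9 genes and 0% of all genes. At an unadjusted p under 0.05 there were 0 of 9, against 3.54% of all genes. The groups overlapped in all 9, where 8.34% of all genes did not overlap. The log2 fold changes ran from -0.23 for Tap1 to 0.12 for B2m, with a median of -0.08 beside 0.00 over all genes. Without VEH-CD mouse 2 that of B2m was 0.01 and that of Tap1 -0.34, and without VEH-CD mouse 3 that of Tap1 was -0.12. Without VERCUR-CD mouse 3 it was -0.35. Tap1 had a mean of 141 ± 21.9 (SD, n = 3) normalized counts in VEH-CD and 120.1 ± 18.6 in VERCUR-CD mice. The difference was -0.23 ± 0.16 (SE) on the log2 scale, and its adjusted p by limma was 0.867. Cd74 had means of 171 ± 51.7 and 153 ± 5.14 in the same groups, a log2 difference of -0.12 with an interval of -0.52 to 0.28.

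In WT mice the largest difference between treatments was that of H2-Aa, which did not pass the adjusted test. It had means of 43.8 ± 8.70 (SD, n = 3) normalized counts in VEH-WT and 76.8 ± 21.7 in VERCUR-WT mice. The fold change was 1.71, a log2 difference of 0.77 ± 0.24 (SE), with an unadjusted p of 0.00657 and a limma adjusted p of 0.944. Among the 9 genes 0 were called, and among all genes 0%, and 1 of the 9 had an unadjusted p under 0.05, against 5.22% of all genes. The lowest VERCUR-WT mouse lay within the VEH-WT range, so the groups overlapped. The gene paired with it in the A molecule, H2-Ab1, had a log2 fold change of -0.01 ± 0.23, and Cd74 one of 0.24 ± 0.18.

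B2m was the member whose WT groups did not overlap, 1 of 9 against 9.72% of all genes. Its values in VERCUR-WT mice lay below those in VEH-WT mice, with a log2 fold change of -0.11 ± 0.08 and an unadjusted p of 0.181. The limma fit without the most extreme value of variable groups left out VERCUR-WT mouse 3 for H2-Aa, the mouse that lay within the VEH-WT range. It called H2-Aa at a log2 fold change of 1.03 and an adjusted p of 0.0047, and raised the calls over all genes to 649 from 0. This removal narrows the spread by design, so that adjusted p overstates the evidence.

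Against VEH-WT mice, the VERCUR-CD mice showed no called member of 9, where 0.199% of all genes were called. At an unadjusted p under 0.05 there were 0 of 9, against 8.68% of all genes. The log2 fold changes ran from -0.31 for Cd74 to 0.19 for H2-Aa.

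With the genotypes compared over both treatments, Cd74 had the smallest unadjusted p of the 9 genes and a lower mean in CD mice, and it was not called. limma called 0 of the 9, and 0.321% of all genes, and 1 of 9, Cd74, had an unadjusted p under 0.05, against 9.64% of all genes. Cd74 was at 208 ± 31.7 (SD, n = 6) normalized counts in WT and 162 ± 34.4 in CD mice, a log2 difference of -0.37 ± 0.13 (SE), with an adjusted p of 0.359 by limma. Of the 6 CD mice, only VEH-CD mouse 3, at 228, was above the lowest WT mouse, at 183. Tap1 was at 111 ± 10.6 and 130.5 ± 21.4, a log2 difference of 0.23 ± 0.11, and B2m at 2970.1 ± 159.8 and 3183 ± 273.4, a log2 difference of 0.10 ± 0.06. For H2-Eb1 it was -0.30 ± 0.17, with an unadjusted p of 0.0948, and -0.16 without VEH-CD mouse 2. H2-K1 was nearly level between the genotypes, at 0.02 ± 0.09, and its sign turned in 4 of 12 fits that left out a mouse. H2-Aa was at -0.20 ± 0.17, from a positive value between the VEH groups and a negative one between the co-treated groups.

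With the treatments compared over both genotypes, H2-Aa was 1 of 9 with an unadjusted p under 0.05, at a log2 difference of 0.39 ± 0.17 (SE) and a limma adjusted p of 1, against 2.96% of all genes. Of the 9, 0 were called, and of all genes 0%. The interaction, which tests whether the genotypes responded differently to the co-treatment, gave 1 of 9 at an unadjusted p under 0.05, again H2-Aa, against 6.05% of all genes. Its interaction term was -0.76 ± 0.34 (SE) on the log2 scale, with an adjusted p of 0.816. For B2m the term was 0.23 ± 0.11 and for Cd74 -0.36 ± 0.26, both with an unadjusted p above 0.05. Without VEH-CD mouse 2 the term of B2m was 0.13 and that of Cd74 -0.55, and without VEH-CD mouse 3 that of Cd74 was -0.13. With the adjusted p alone as the criterion, 0 of the 9 and 0% of all genes were called.

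The other genes of the MHC pathways were taken from lists of class I chains (16 tested), class I peptide loading (14), class II chains and processing (16), transcription regulators (16) and class I receptors found in the brain (4), some of which include members. None of these genes was called in any of the 8 comparisons, which called from 0% to 0.321% of all genes tested. Between VEH-CD and VEH-WT mice the medians of the lists were 0.08, 0.09, 0.11, -0.03 and 0.10 on the log2 scale, beside 0.00 over all genes. Positive changes were found in 12 of 16 class I chains, 9 of 14 loading genes and 10 of 16 class II genes, and in 4 of 16 regulators. In the list of 28 interferon-responsive genes, none was called between these groups, against 0.257% of all genes, and the median was 0.05.

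Among the class I chains, the highest log2 fold change between the VEH groups was that of H2-Q7, at 0.53 ± 0.37 (SE), and the lowest that of H2-Q1, at -0.21 ± 0.35. Both code for nonclassical heavy chains and were at 42.6 normalized counts or below in every mouse. In the loading list Tap1 was the highest and Lnpep, an aminopeptidase, the lowest, at -0.25 ± 0.15. The immunoproteasome subunits Psmb8 and Psmb9 were at 0.18 ± 0.17 and 0.26 ± 0.21, and the peptide loading chaperone Tapbp at 0.08 ± 0.08. Of the 14 loading genes 2 had an unadjusted p under 0.05, Tap1 and Tapbpl, where 11.8% of all genes did. Tapbpl, a relative of Tapbp, was at 0.31 ± 0.12 with an unadjusted p of 0.0264 and a limma adjusted p of 0.349.

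Among the class II genes, H2-Oa, which codes for a chain of the modulator H2-O, was the highest at 0.62 ± 0.31 (SE) and Ifi30, a thiol reductase of the endosome, the lowest at -0.37 ± 0.15. Ifi30 had an unadjusted p of 0.0337 and a limma adjusted p of 0.375. H2-DMa, a chain of the peptide exchange factor H2-DM, was at 507, 516 and 508 normalized counts in VEH-WT mice and at 545.0, 562 and 535 in VEH-CD mice. These groups did not overlap, as was so for 20.6% of all genes, and the log2 fold change was small, at 0.10 ± 0.08.

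The regulators included Nlrc5, the transactivator of class I genes, which had the lowest log2 fold change of its list between the VEH groups. It was at 25.8, 30.02 and 33.0 normalized counts in VEH-WT mice and at 22.9, 15.0 and 22.8 in VEH-CD mice. These low values rest on few reads, and the groups did not overlap, as was so for 20.6% of all genes. The log2 fold change was -0.55 ± 0.28 (SE), with an unadjusted p of 0.0754 and a limma adjusted p of 0.475, while the class I genes themselves had the values given above. Nlrc5 was at -0.49 ± 0.28 in VERCUR-WT against VEH-WT mice and at -0.02 ± 0.28 between the co-treated genotypes. Of the 16 regulators 1 had an unadjusted p under 0.05 between the VEH groups, against 11.8% of all genes. This was Rfxank, a subunit of the RFX complex that binds MHC promoters, at -0.23 ± 0.08 and an unadjusted p of 0.0144 (limma adjusted p = 0.3). Ifngr1, a chain of the interferon gamma receptor, was the highest of the list at 0.13 ± 0.08. Of the receptor list, the phosphatase gene Ptpn6 was the highest, at 0.39 ± 0.16 and an unadjusted p of 0.0352, and the phosphatase gene Ptpn11 the lowest, at -0.12 ± 0.06.

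**Figure D3:**
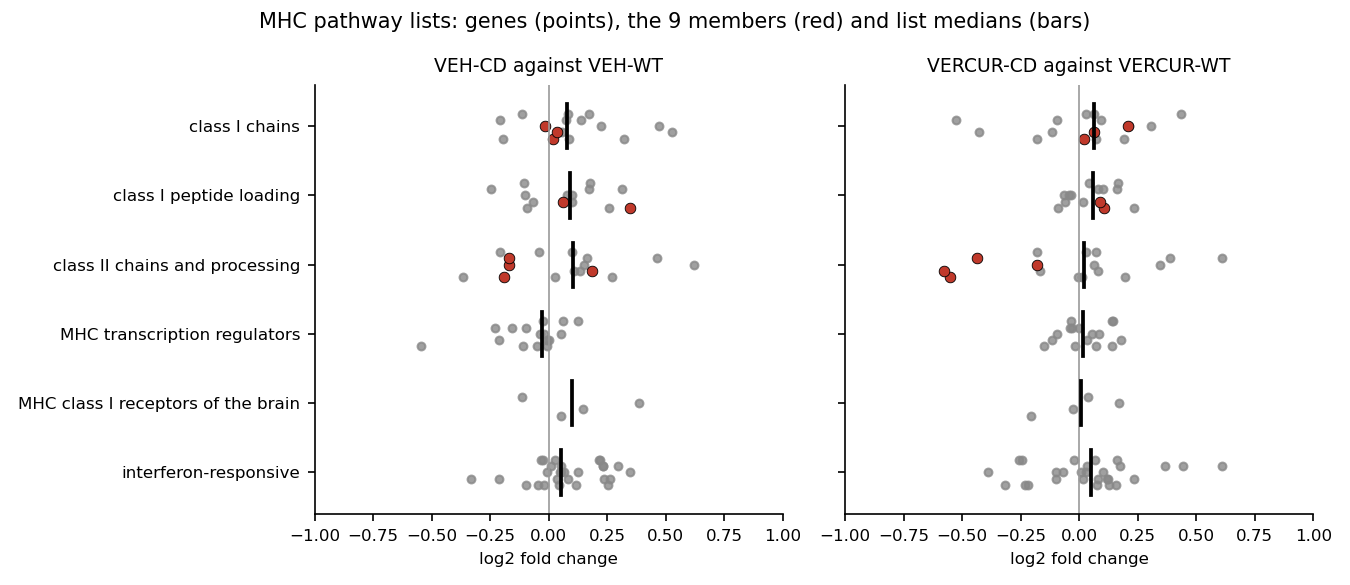
Log2 fold change of every tested gene in 6 lists, between the VEH genotypes (left) and the co-treated genotypes (right); red points are the 9 members, grey points other genes and black bars list medians. The 4 red points of the class II list lie at or below -0.18 in the right panel, while the median of that list is 0.02.

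Between the co-treated genotypes the class II list as a whole was centred near 0. Its median was 0.02 over 16 genes, with 9 positive and 7 negative changes, and the members supplied 4 of the 7 negative ones. H2-DMa was at 615, 575 and 534 normalized counts in VERCUR-WT mice and at 524, 470.3 and 525 in VERCUR-CD mice. These groups did not overlap, as was so for 7.74% of all genes. Its log2 fold change by limma was -0.18 ± 0.08 (SE), with an unadjusted p of 0.0379. The class I chains had a median of 0.06 and the loading genes of 0.06.

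The members were also compared with each other across the 12 mice. In 36 pairs, 31 had a positive Pearson's r on log2(normalized count + 1), and 35 were positive once the group means were removed. Permutation tests passed Benjamini-Hochberg adjustment over the 36 pairs for 2 of them. H2-K1 and H2-D1, the heavy chains, had r = 0.876 (permutation p = 0.0002, adjusted p = 0.0072) and Spearman's rho = 0.818 (permutation p = 0.00202, adjusted p = 0.0655). Without the 2 mice farthest from the median of H2-K1, r was 0.817, and within groups it was 0.887.

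Cd74 and H2-Eb1 had r = 0.842 (permutation p = 0.00061, adjusted p = 0.011) and rho = 0.783 (permutation p = 0.00364, adjusted p = 0.0655). Without VEH-CD mouse 2 and VERCUR-WT mouse 2, the farthest from the median of Cd74, r was 0.616, so part of this relation rests on those mice. Within groups r was 0.78. The next pair, H2-D1 and Tap2, had r = 0.742 (permutation p = 0.00754, adjusted p = 0.0905) and rho = 0.762 (permutation p = 0.00581, adjusted p = 0.0697), with r = 0.703 without the 2 farthest mice.

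B2m is an example of a gene whose relations changed with the group means. Over the 12 mice B2m and Cd74 had r = -0.038 (permutation p = 0.906, adjusted p = 0.924) and rho = -0.217 (permutation p = 0.502, adjusted p = 0.791), with r = -0.491 without the 2 farthest mice. After the group means were removed, r was 0.784, a description over 12 values that share 4 means. The values of a mouse share its library and normalization factor.

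**Figure D4:**
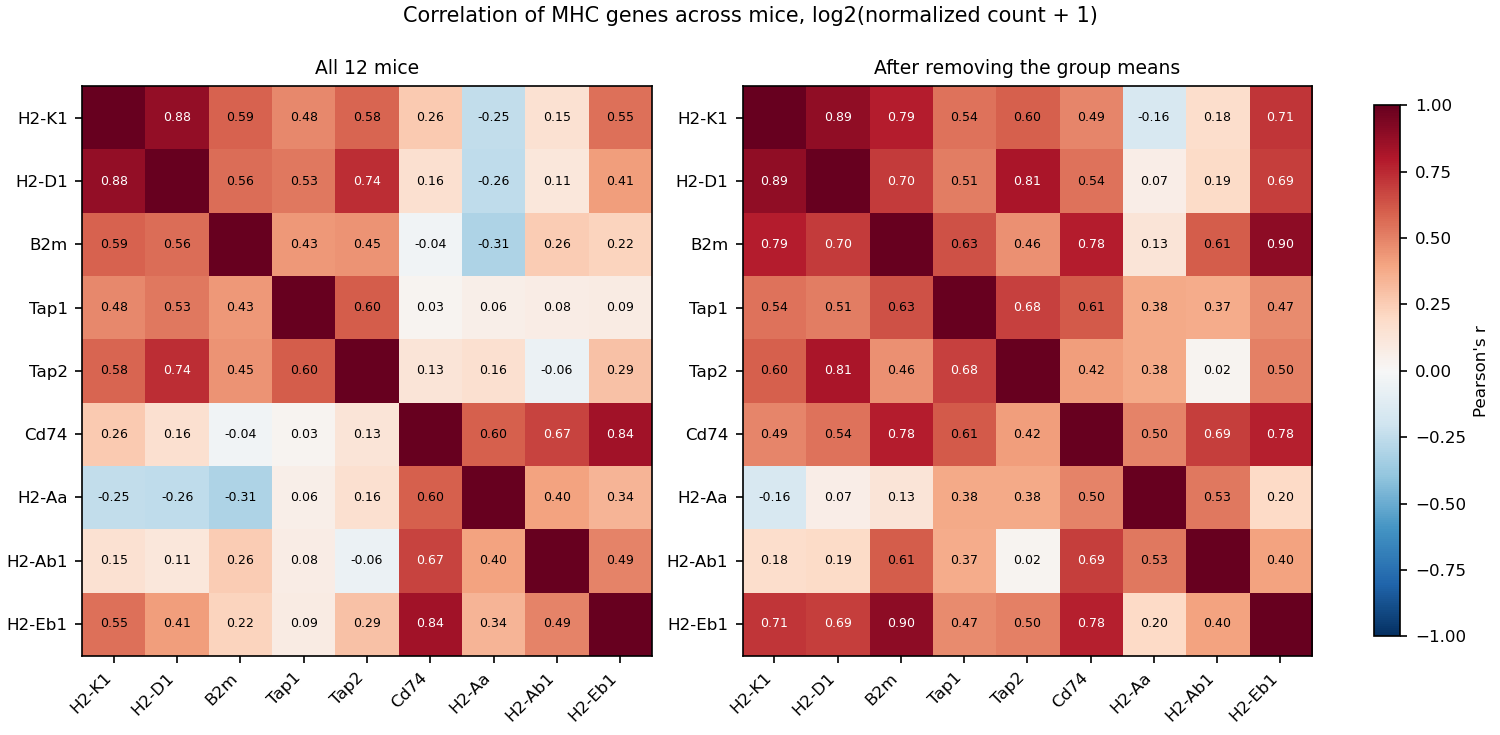
Pearson's r between the 9 MHC genes over 12 mice, on log2(normalized count + 1) (left) and on deviations from the group means (right); the colour runs from -1 (blue) to 1 (red). The highest values on the left are 0.88 for H2-K1 with H2-D1 and 0.84 for Cd74 with H2-Eb1.

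**Figure D5:**
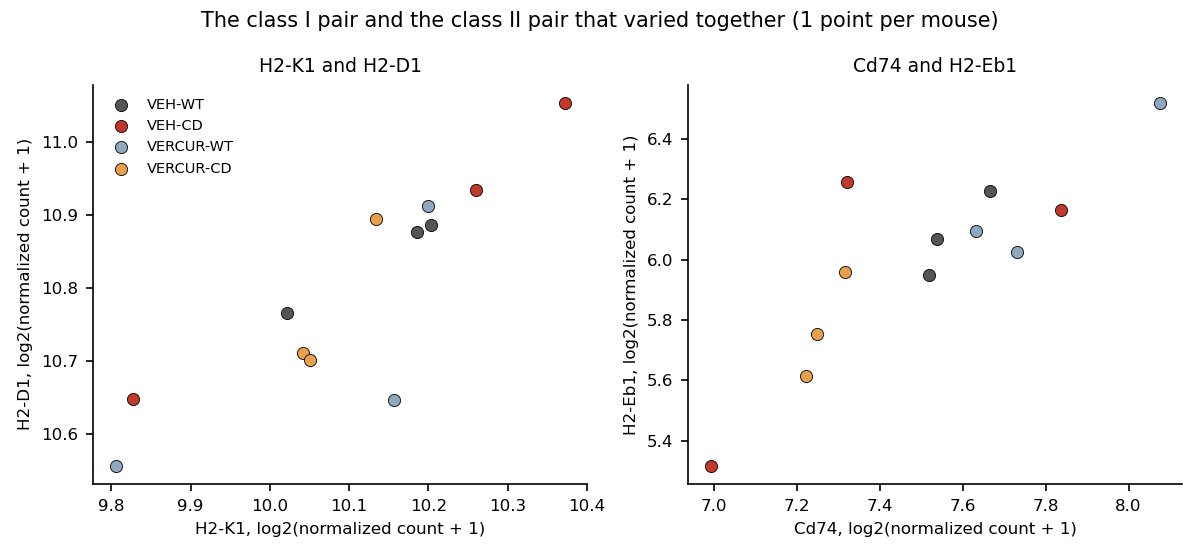
H2-D1 against H2-K1 (left) and H2-Eb1 against Cd74 (right), 1 point per mouse, both axes log2(normalized count + 1), colours by group. Pearson's r is 0.876 on the left and 0.842 on the right.

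Of all 17111 genes, those whose pattern over the 12 mice was most like that of H2-D1 were Rhoh (r = 0.902), Sash3 (0.895), Cox4i2 (0.893), Tmem97 (0.875) and Fez2 (0.867), beside the member H2-K1 at 0.876. For Cd74 they were Igfbp2 (r = 0.921), Eln (0.902), Mustn1 (0.891), Tagln (0.833) and Lct (0.829), with H2-Eb1 at 0.842. Eln lies in the deleted interval and was lower in CD mice. Its r with Cd74 within groups was 0.9, and the part of the deletion in this relation was not tested. These correlations were picked as the highest of 17111 and are a description only.

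Markers of the cell types that could carry MHC RNA were set beside the members. Markers of border-associated macrophages (9 of 10 listed genes tested) summed to 1010.0 to 1144 normalized counts in VEH-WT, 679.9 to 937 in VEH-CD, 921 to 1248 in VERCUR-WT and 774 to 936 in VERCUR-CD mice. In this list Stab1 was called lower in CD mice over both treatments, with a log2 difference of -0.52 ± 0.08 (SE) and a limma adjusted p of 0.0117. Of the 9, 7 had a negative difference over both treatments and 2 a positive one, Pf4 at 0.17 ± 0.19 and Cbr2 at 0.16 ± 0.25. None but Stab1 was called, in a comparison that called 0.321% of all genes. Between the VEH genotypes alone Pf4 was at 0.57 ± 0.26 (unadjusted p = 0.0519), Cd163 at 0.32 ± 0.27 and Cbr2 at 0.26 ± 0.35. The others of the list were negative there. Lyve1 was at -0.97 ± 0.32, Stab1 at -0.568 ± 0.115 (limma adjusted p = 0.0709), Mrc1 at -0.442 ± 0.283 and F13a1 at -0.397 ± 0.227. Ms4a7, at -0.045 ± 0.373, and Clec10a, at -0.031 ± 0.243, were near 0. Cd74 and the mean of these markers had r = 0.781 (permutation p = 0.0025, adjusted p = 0.132) and rho = 0.804 (permutation p = 0.0023, adjusted p = 0.156) over the 12 mice, and r = 0.684 without the 2 farthest mice and 0.741 within groups. The part of these cells in the values of Cd74 was not tested.

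None of the 117 relations between a member and a marker list passed the adjustment. The microglia markers (12 genes) summed to 22117 to 28235 over all mice, and with Cd74 they had r = 0.039 (permutation p = 0.903, adjusted p = 0.979) and rho = 0.105 (permutation p = 0.751, adjusted p = 0.998), and r = 0.343 without the 2 farthest mice. With Tap2 the same markers had r = 0.723 (permutation p = 0.00676, adjusted p = 0.132) and rho = 0.706 (permutation p = 0.0128, adjusted p = 0.374), and r = 0.679 without 2 mice. Tap2 was as closely related to the endothelial markers, with r = 0.730 (permutation p = 0.00631, adjusted p = 0.132) and rho = 0.797 (permutation p = 0.00267, adjusted p = 0.156), and r = 0.700 without 2 mice. H2-D1 with the B cell markers had r = 0.75 (permutation p = 0.00496, adjusted p = 0.132) and rho = 0.636 (permutation p = 0.0302, adjusted p = 0.526), and r = 0.577 without 2 mice. H2-K1 with the oligodendrocyte markers had r = 0.738 (permutation p = 0.00585, adjusted p = 0.132) and rho = 0.545 (permutation p = 0.0699, adjusted p = 0.602), and r = 0.604 without 2 mice. The highest r of a class II chain was that of H2-Ab1 with meningeal fibroblast markers, 0.803 (permutation p = 0.00311, adjusted p = 0.132), with rho = 0.762 (permutation p = 0.00533, adjusted p = 0.208) and r = 0.826 without 2 mice. H2-Aa had r = 0.699 with the same markers (permutation p = 0.00942, adjusted p = 0.157), and 0.366 without 2 mice. With the striatal markers H2-Aa had r = -0.654 (permutation p = 0.0201, adjusted p = 0.241) and rho = -0.462 (permutation p = 0.135, adjusted p = 0.75), and r = -0.832 without 2 mice.

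The B cell list, which had 4 tested genes, was at 1555 to 2397 normalized counts in WT and at 862 to 1844 in CD mice, nearly all of it Ighm. Ighm was called lower in CD mice over both treatments, with a log2 difference of -0.79 ± 0.14 (SE) and a limma adjusted p of 0.0297. That comparison called 0.321% of all genes. The other three did not go one way: Cd79b, a chain of the B cell receptor, was at 0.80 ± 0.39 over both treatments, and its partner Cd79a at 0.41 ± 0.31 between the VEH genotypes and -0.61 ± 0.31 between the co-treated ones, and Igkc, an antibody light chain, at -0.29 ± 0.35 over both treatments, none of them called. Cd3e and Cd8a of T cells and Itgax of dendritic cells were not among the 17202 genes measured. The T cell genes Trac and Cd4 were at 0.27 ± 0.26 and 0.17 ± 0.89 between the VEH genotypes. Between the co-treated ones they were at 0.49 ± 0.26 and 0.16 ± 0.89, and neither was called in these comparisons. The part of these cells in the members' values was not tested.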

How the data were processed

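Cortical RNA of 12 mice (3 per group, separate animals) was sequenced as paired-end reads, which the authors mapped to GRCm38 with STAR 2.5.3a. The authors deposited normalized counts per gene and mouse, that is, a count divided by 1 factor per library, and the counting program, annotation and normalization are not given in the sources used here. In each library 100% of low values were whole multiples of 1 step (tolerance 0.1 step), which gives the depth. This depth covers counting error only. Tables of expression relative to VEH-WT were not used here.

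With limma 3.58.1 in R 4.3.3, a linear model of log2(normalized count + 1) was fitted for the 17111 genes with a mean of at least 10, with 4 group means and an intensity trend, and two-sided p values were Benjamini-Hochberg adjusted over those genes in each comparison. Correlations used 100000 permutations (SciPy 1.17.1). Same-numbered mice deviated from their group means with r from -0.347 to 0.267, so numbers were not taken as pairs. On simulated data limma was tested for recovery. The members and lists were chosen with earlier results of these data known. Named beside the members are the highest and lowest gene of each list between the VEH groups and Nlrc5, Psmb8, Psmb9, Tapbp and H2-DMa, and the 5 genes most like H2-D1 and Cd74 across mice. Further genes were named after their values were seen. A planned count test on recovered reads was not run.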

Additional observations from a re-analysis of the deposited data

How the results depend on the processing

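Counts of called members were 0 in every fit that left out 1 mouse and with the replicate number as a block (replicate block, 0 in each of 8 comparisons); the samples share only a number. They differed from 0 only where single values were left out in groups with high CV, with 2 for VERCUR-CD against VERCUR-WT (Cd74 and H2-Aa), and 1 each for VERCUR-WT against VEH-WT (H2-Aa), genotype over treatments (Cd74), co-treatment over genotypes (H2-Aa) and the interaction (H2-Aa), and with sample quality weights, with 1 for genotype over treatments (Tap1). Those weights did not converge, and gave 1 mouse a weight of 24.4. A gene-by-gene estimate of the weights, an alternative chosen once the data had been seen, called 0. Where single values were left out, the value removed for Cd74 was that of VEH-CD mouse 3, the only CD mouse above the lowest WT mouse. For H2-Aa it was that of VERCUR-WT mouse 3, far below the rest of its group. Leaving out extreme values narrows the spread by design. The cause of the differences between settings was not tested.

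Of 36 member fold changes followed, 30 kept their sign under all 13 alternatives other than leaving out a mouse, and 24 kept it in all 12 fits without a mouse. Between the VEH genotypes the sign turned for B2m under quantile normalization (0.015), quality weights (0.053) and weights gene by gene (0.043), for Cd74 under quality weights (0.02), and for H2-Eb1 under quality weights (0.027), weights gene by gene (0.043) and single values left out (0.127). Cd74 in VERCUR-CD against VEH-CD turned to 0.106 with single values left out, and quality weights turned H2-K1 (-0.02) and H2-D1 (-0.007) between the co-treated genotypes. Without 1 mouse, the log2 fold change between the VEH genotypes ranged from -0.093 to 0.179 for H2-K1, -0.052 to 0.151 for H2-D1, -0.075 to 0.085 for B2m, -0.032 to 0.159 for Tap2, -0.419 to 0.004 for Cd74 and -0.342 to 0.127 for H2-Eb1, and that of Cd74 in VERCUR-CD against VEH-CD from -0.316 to 0.106. Between the co-treated genotypes it ranged from -0.103 to 0.095 for H2-K1, -0.011 to 0.167 for H2-D1, -0.017 to 0.193 for Tap1 and -0.027 to 0.247 for Tap2, and over both treatments the genotype difference of H2-K1 from -0.043 to 0.101. The planned count models on recovered reads were not run, although each library's low values divided evenly into reads. Recovered reads were used only to describe the depth of each library and the reads behind single members. With 3 mice a group and 31 to 98 reads per mouse for H2-Aa and H2-Ab1, differences within the intervals given cannot be told from 0 here.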
